A study of Rattus norvegicus with 12 samples.

Results

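Astrocytes are the star-shaped supporting cells of the brain and spinal cord, and satellite glia are the cells that wrap the bodies of sensory neurons in the dorsal root ganglia (DRG). Both cell types clear glutamate, buffer potassium and water, and are joined by gap junctions, and both are known to change after nerve injury in models of pain. Schwann cells, the myelinating glia of peripheral nerve, share some of these genes, S100b among them. Followed here across nerve, DRG and spinal cord were 9 genes that mark astrocytes, several of them also satellite glia, namely Gfap, Aqp4, Slc1a2, Slc1a3, Gja1, Aldh1l1, Glul, Fabp7 and S100b. They were chosen by name, and the probes whose RefSeq accession belongs to them were taken from the array, which gave 14 probes for 9 of the 15159 named genes. All 9 members were among the 11095 genes tested, which were well above background on at least 4 of the 12 arrays.

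Sciatic nerve, DRG and the dorsal part of the spinal cord were each profiled on 4 of 12 single-colour Agilent arrays. Every array held a pool of tissue from 3 female rats aged 8 weeks that had received MBP84-104, a peptide of myelin basic protein (50 μg in 5 μL of PBS), in the left sciatic nerve. The nude rats were athymic Hsd:RH-Foxn1rnu animals, which lack mature T cells, and were sampled at day 7. The wild-type rats were Sprague-Dawley in the labels and were sampled at day 12. The labels and the paper differ on the wild-type rats, for which the paper gives the same day as for nude rats and names rnu+/- animals. In each tissue and rat type, 1 array held the injected side and 1 its control, which was the right nerve given PBS, the right DRG, or the dorsal cord above the lumbar enlargement ("rostral") against the lumbar dorsal cord. Differences between sides within a rat type therefore have no replicate check, and the rat types differ in strain, day and, for DRG and cord, slide. Arrays of a rat type may share animals, so p-values measure the spread between these arrays only.

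Between 59.5% and 76.9% of spots per array were well above background, and the median spot signal ranged from 15.4 on the injected nude nerve to 74.9 on the rostral wild-type cord. Values below are relative signals, that is, the probe signal divided by the median of its array, so a value of 1 is the signal of the median probe. The number of arrays limits the precision. The injected nude nerve was the dimmest array and its lowest detectable relative signal, the floor, was 0.65, against 0.164 to 0.539 on the other 11 arrays. The tissue labels matched their markers. The summed relative signal of 7 sensory neuron markers was 699 to 797 in DRG and at most 89.3 elsewhere, that of 8 oligodendrocyte markers 647 to 1040 in cord and at most 15.6 elsewhere, and that of 7 fibroblast and perineurium markers 7669 to 9436 in nerve and at most 2041 elsewhere. Such sums take only markers well above background.

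The 4 members whose listed start lies at the edge of the gene, so that the 250 bases before it hold no part of the gene, all had a higher signal in cord than in nerve and DRG, and these bases are shown to set the results beside sequence. They are from RefSeq (rat build GRCr8), 5′ to 3′ on the gene's strand, with motif matches in capitals: Gfap at chr10:88361662-88361911 (minus strand), Slc1a2 at chr3:109459859-109460108 (plus strand), Slc1a3 at chr2:59557809-59558058 (minus strand) and Glul at chr13:68519250-68519499 (plus strand).
Gfap: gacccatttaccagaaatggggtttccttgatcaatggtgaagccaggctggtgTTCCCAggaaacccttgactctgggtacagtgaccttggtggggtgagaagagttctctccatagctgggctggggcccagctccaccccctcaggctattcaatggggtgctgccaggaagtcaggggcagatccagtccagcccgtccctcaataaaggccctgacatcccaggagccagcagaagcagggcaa
Slc1a2: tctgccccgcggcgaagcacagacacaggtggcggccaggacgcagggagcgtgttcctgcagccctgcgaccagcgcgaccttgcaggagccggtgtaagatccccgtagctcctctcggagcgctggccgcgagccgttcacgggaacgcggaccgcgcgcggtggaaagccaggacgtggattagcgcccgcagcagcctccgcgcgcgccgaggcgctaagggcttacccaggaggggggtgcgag
Slc1a3: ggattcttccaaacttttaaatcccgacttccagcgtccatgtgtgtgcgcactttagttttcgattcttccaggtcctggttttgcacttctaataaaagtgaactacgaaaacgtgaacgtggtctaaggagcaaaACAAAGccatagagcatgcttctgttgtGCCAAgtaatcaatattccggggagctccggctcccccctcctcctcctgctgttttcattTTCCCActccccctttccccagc
Glul: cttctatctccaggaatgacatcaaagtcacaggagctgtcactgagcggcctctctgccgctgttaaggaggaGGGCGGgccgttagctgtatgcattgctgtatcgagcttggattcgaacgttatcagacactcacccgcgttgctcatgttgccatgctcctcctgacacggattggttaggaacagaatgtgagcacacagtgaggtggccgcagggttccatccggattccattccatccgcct
The motifs searched on both strands were TTCNNNGAA (STAT), TGGGAA (RBPJ core), TTGGC (part of an NFI site), ACAAAG (SOX) and GGGCGG (a GC box), and no 2 matches overlapped. Gfap held 1 match to TGGGAA, a word in 22.1% of the 33469 promoter windows of this length. Slc1a3 held 1 match each to TGGGAA, to TTGGC (in 40.3% of windows) and to ACAAAG (in 16.3%), Glul held 1 to GGGCGG (in 30.5%), and Slc1a2 held none. TTCNNNGAA, present in 7.67% of windows, was in none of the 4. A match is a description of letters in these windows and not a binding site.

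The question of the tissue comparison was how the level of each gene differed between cord, DRG and nerve. In cord, 8 of the 9 genes were called higher than in nerve, and all 9 were called higher than in DRG. Between DRG and nerve only Fabp7 was called higher in DRG and only Gja1 higher in nerve. With control arrays only, Aqp4 was also called higher in DRG (log2 1.13) and Glul also lower (−1.02). In bulk tissue, fewer cells of a type and less RNA per cell cannot be told apart. A gene was called when the adjusted p (limma across 11095 genes, rat type as a block, Benjamini-Hochberg, two-sided) was under 0.05 and the difference at least 2-fold. Over all genes, 17.6% were called higher in cord than in nerve, 16.6% higher in cord than in DRG, 7.42% higher in DRG than in nerve and 11.2% lower. No member was called lower in cord, where 21.4% of genes were lower than in nerve and 12.8% lower than in DRG. The median log2 difference of the 9 members was 2.97 for cord minus nerve and 3.14 for cord minus DRG, beside −0.13 and 0.12 over all genes.

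**Figure D1:**
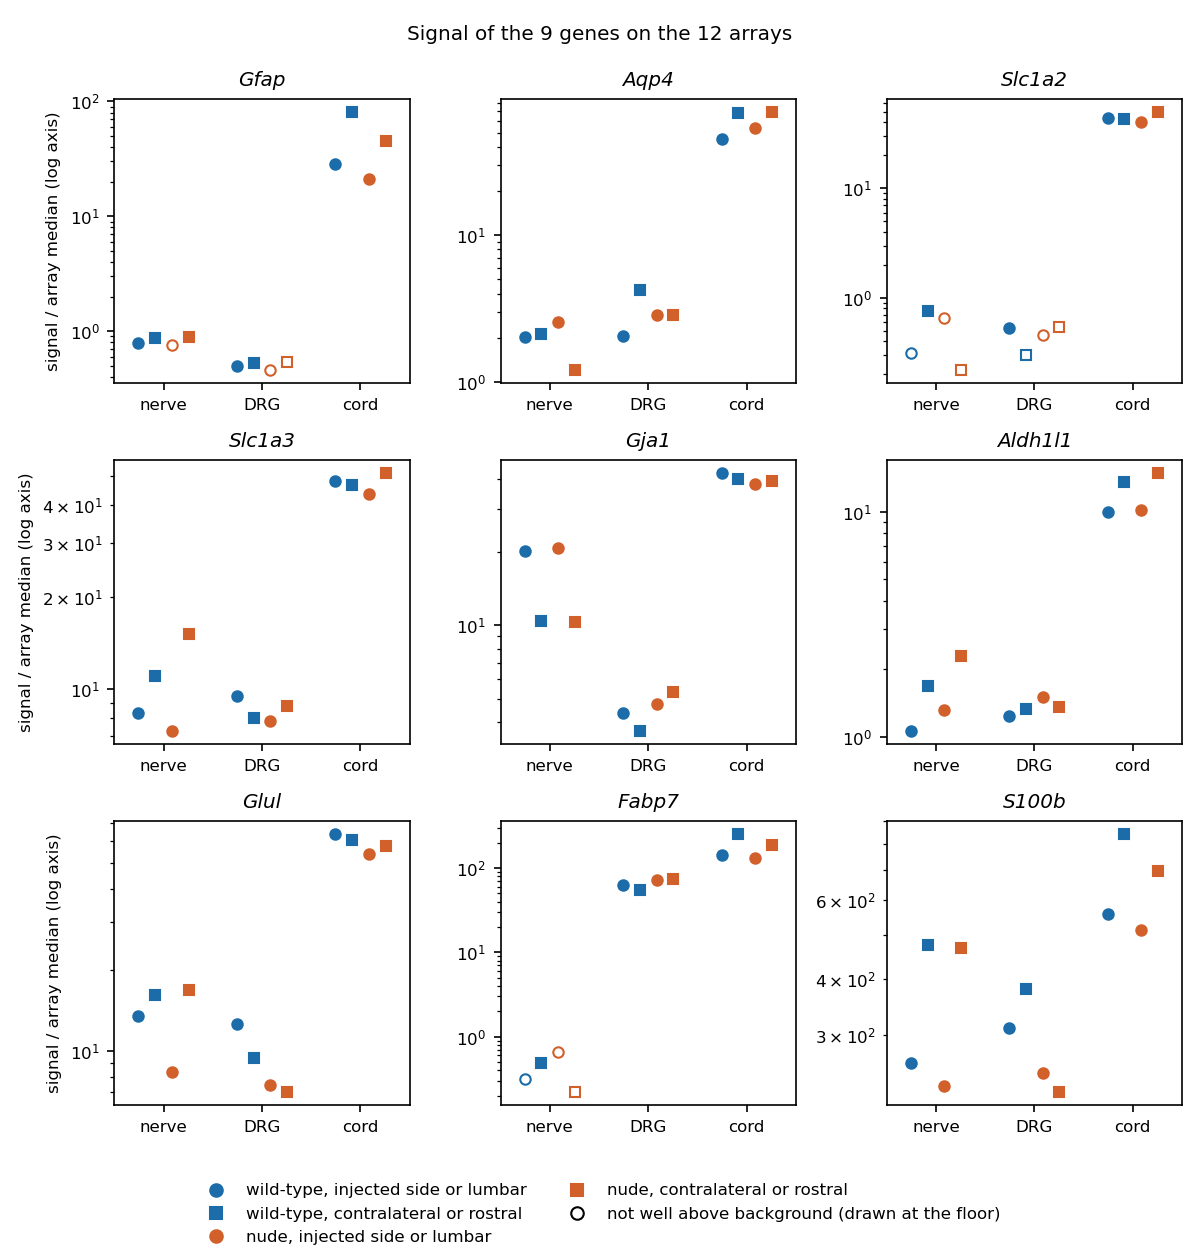
Relative signal (signal divided by the array median, log axis) of the 9 genes on the 12 arrays, by tissue, with wild-type arrays in blue, nude arrays in orange, circles for the injected side or lumbar cord and squares for the contralateral side or rostral cord. Open symbols are signals not well above background, drawn at their value or, where that was lower, at the floor of their array. On the probe drawn, the 4 cord arrays lie above the nerve and DRG arrays for each gene, and Fabp7 is also high on the 4 DRG arrays. The share of all genes whose cord arrays lie apart in this way is not given.

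Gfap, the intermediate filament of astrocytes, had relative signals of 81.6 in the rostral and 28.4 in the lumbar cord of wild-type rats, with 45.2 and 21.1 for the nude rats. In nerve it was 0.875 on the contralateral and 0.782 on the injected wild-type array, and 0.881 on the contralateral nude array. The injected nude nerve, at 0.752, was not well above background. In wild-type DRG it was 0.523 contralaterally and 0.5 on the injected side, and neither nude array was well above background. The cord arrays did not overlap with those of the other tissues, and Gfap was seen at or below the median probe wherever it was seen outside the cord. The log2 difference was 5.55 ± 0.30 (SE, n = 4 arrays per tissue, limma adjusted p = 2.37e-09) for cord minus nerve. For cord minus DRG it was at least 6.26 ± 0.30 (adjusted p = 3.84e-09), since both nude DRG arrays were raised to their floors.

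Aqp4, the water channel of astrocyte endfeet, was measured by 3 probes that differed outside the cord. The probe with the highest mean log2 signal, A_64_P036063, read 68.4 rostral and 45 lumbar in wild-type cord and 69.7 rostral and 53.8 lumbar in nude cord. It was well above background on all 12 arrays, with 1.2 to 2.58 in nerve and 2.06 to 4.26 in DRG. Cord exceeded nerve by 4.94 ± 0.26 (SE) and DRG by 4.33 ± 0.26 on the log2 scale, with limma adjusted p of 1.56e-09 and 2.01e-08. Probe A_44_P561166 read 427 to 797 in cord and was well above background on 2 of 4 nerve arrays, both wild-type (3.68 contralateral and 1.56 injected), and on 1 of 4 DRG arrays, that of the wild-type injected side, at 2.99. Probe A_64_P018751 read 29.1 to 44.2 in cord, was well above background on no nerve array and on 1 DRG array, at 0.186. With nerve at the floor, its cord signal was at least 99.4-fold higher, where A_64_P036063 gave 30.6-fold. For A_44_P561166 it was at least 589-fold higher, since 2 of the 4 nerve arrays were raised to the floor. All 3 probes placed the 4 cord arrays above every nerve and DRG array, but they did not give the same order among nerve and DRG arrays.

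**Figure D2:**
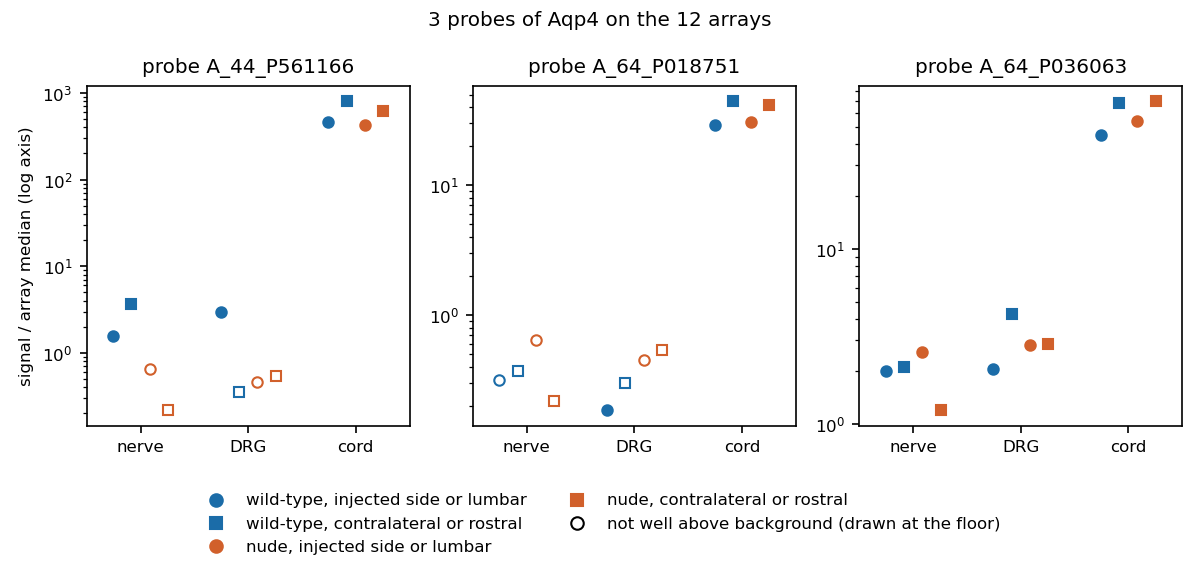
Relative signal (log axis, its own range in each panel) of the 3 Aqp4 probes on the 12 arrays, with colours and symbols as in the legend. Open symbols are drawn at the signal or, where that was lower, at the floor. Cord arrays are highest in each panel, while A_64_P036063 was well above background on all 12 arrays and A_64_P018751 on 1 array outside the cord.

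The glutamate transporters differed from each other. Slc1a2 (GLT-1), which takes up most synaptic glutamate in the adult central nervous system, read 43.2 rostral and 43.8 lumbar in wild-type cord and 50.3 rostral and 40.5 lumbar in nude cord. It was well above background on 1 nerve array, the contralateral wild-type nerve at 0.76, and on 1 DRG array, the wild-type injected side at 0.526. On values raised to the floor, cord exceeded nerve by at least 6.69 ± 0.34 (SE) and DRG by at least 6.64 ± 0.34 on the log2 scale (limma adjusted p = 1.17e-09 and 5.31e-09). The SE and p rest in part on floors that differ between arrays. The second Slc1a2 probe gave 6.06 and 6.09. Slc1a3 (GLAST), which is also made by satellite glia, was well above background on all 12 arrays, with 43.4 to 51.1 in cord, 7.26 to 15.1 in nerve and 7.87 to 9.48 in DRG. Cord exceeded nerve by 2.24 ± 0.19 and DRG by 2.47 ± 0.19 (adjusted p = 2.32e-07 and 2.28e-07), and its second probe gave 2.26 and 1.94. Glul, the glutamine synthetase that turns glutamate into glutamine, read 54 to 64.1 in cord, 8.29 to 16.8 in nerve and 6.99 to 12.6 in DRG. Its cord arrays were apart from both other tissues, by 2.17 ± 0.20 over nerve and 2.74 ± 0.20 over DRG (adjusted p = 3.47e-07 and 9.9e-08), while nerve and DRG overlapped. Glul was lower in DRG than in nerve by a log2 difference of −0.57 ± 0.20 (adjusted p = 0.0284), which is under 2-fold. With control arrays only, the difference was −1.02, past 2-fold. With the slide as a block its adjusted p was 0.11, and it reached 0.0847 when single arrays were left out (the contralateral nerve of either rat type, the contralateral DRG of either, or the injected-side nude DRG).

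Gja1 encodes connexin 43, the gap junction protein that couples astrocytes. It was well above background on all arrays, and its cord values of 37.9 to 42.4 varied least of its tissues. Nerve was split by side, with 10.4 and 10.3 on the wild-type and nude contralateral nerves and 20.1 and 20.8 on the injected ones. DRG had the lowest values, from 3.67 to 5.32. The 3 tissues did not overlap. Cord exceeded nerve by 1.45 ± 0.23 (SE) on the log2 scale and DRG by 3.15 ± 0.23 (limma adjusted p = 8.08e-05 and 1.2e-07), and DRG was lower than nerve by a log2 difference of −1.69 ± 0.23 (adjusted p = 4.65e-05).

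Fabp7, the brain lipid-binding protein of radial glia, astrocytes and satellite glia, was the member called higher in DRG than in nerve. In wild-type DRG it read 54.2 contralaterally and 63.3 on the injected side, and in nude DRG 73.5 and 72.1. Wild-type cord read 255 rostral and 143 lumbar, and nude cord 190 and 132. In nerve it was well above background only on the contralateral wild-type array, at 0.481. The 3 tissues did not overlap on values raised to the floor. On the log2 scale, DRG exceeded nerve by at least 7.41 ± 0.30 (SE, limma adjusted p = 9.29e-10) and cord exceeded nerve by at least 8.82 ± 0.30 (adjusted p = 4.22e-11). Both are bounds, since most nerve values lay at or near the floor. Cord exceeded DRG by 1.41 ± 0.30 (adjusted p = 0.00123).

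Aldh1l1, the folate enzyme used as a marker of astrocytes, read 9.97 to 14.9 in cord, 1.06 to 2.29 in nerve and 1.24 to 1.51 in DRG. Cord was 7.86-fold above nerve and 8.84-fold above DRG (log2 2.97 ± 0.21 and 3.14 ± 0.21, SE, limma adjusted p = 3.38e-08 and 6.05e-08), and nerve and DRG overlapped. S100b, the calcium-binding protein of astrocytes and Schwann cells, had the smallest differences of the 9 between cord and both other tissues. Cord values of 513 to 842 lay above the nerve values of 230 to 477 and the DRG values of 223 to 380. Cord exceeded DRG by 1.17 ± 0.24 (adjusted p = 0.00101), past 2-fold, and nerve by 0.91 ± 0.24 (adjusted p = 0.00469), under 2-fold. With the slide as a block, cord minus nerve was 0.78 with adjusted p = 0.0666. On its second probe the cord and nerve arrays overlapped.

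**Figure D3:**
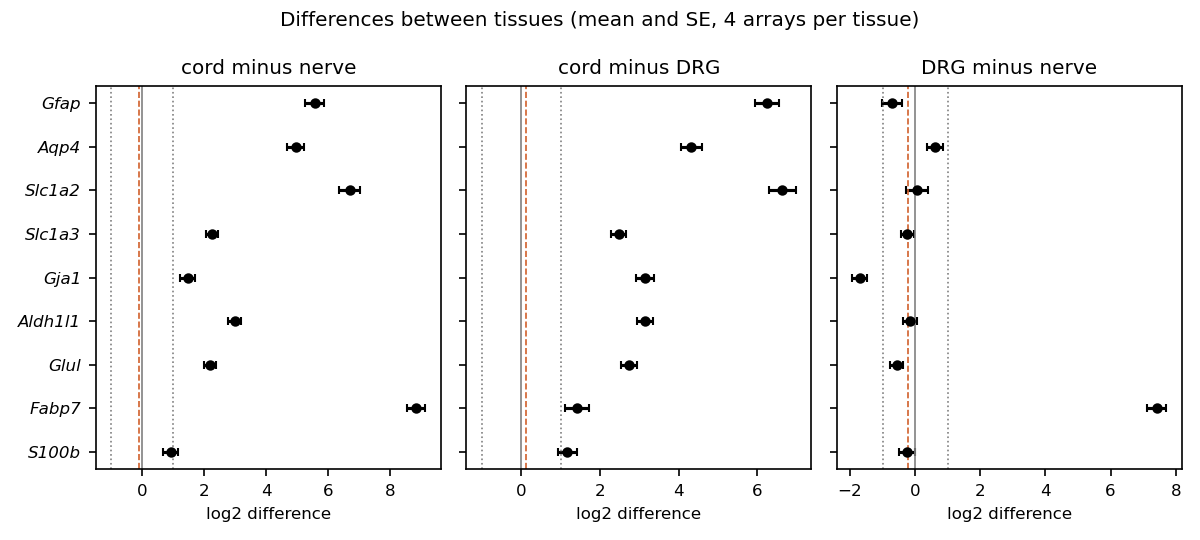
Log2 difference between tissues for the 9 genes (points, fitted means, bars, SE, 4 arrays per tissue). Dotted lines mark 2-fold, and the dashed line is the median of all 11095 genes. Cord minus nerve runs from 0.91 (S100b) to 8.82 (Fabp7, a lower bound), and DRG minus nerve passes 2-fold for Fabp7 and Gja1.

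The differences between tissues were of like size within rat types and slides. On slide 1, which held all nude arrays and the wild-type nerves, cord minus nerve ranged from 0.81 (S100b) to 8.69 (Fabp7) and cord minus DRG from 1.12 (Fabp7) to 6.51 (Slc1a2). On slide 2, with the wild-type DRG and cord, cord minus DRG ranged from 0.99 (S100b) to 6.77 (Slc1a2). The Fabp7 maximum against nerve and the Slc1a2 maxima are lower bounds set in part by the floor. Between rat types at the same site, Gfap read 81.6 in wild-type and 45.2 in nude rostral cord, and S100b 380 and 223 in contralateral DRG. Strain, day, slide and the nude mutation cannot be told apart in these values.

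Other genes of the same functions were read from fixed lists. Over all genes, 17.6% were called higher and 21.4% lower in cord than in nerve. The shares were 16.6% and 12.8% for cord against DRG, and 7.42% and 11.2% for DRG against nerve. Of 28 other astrocyte genes tested, 23 were called higher in cord than in nerve and 23 higher than in DRG, with none lower. They were led over nerve by Bcan, a proteoglycan of the extracellular matrix (log2 8.10), Slc25a18, a mitochondrial glutamate carrier (7.17), and Gjb6, connexin 30 (7.00, well above background on no nerve array), and over DRG by Mlc1 (5.91, on no DRG array), Agt, angiotensinogen (5.78), and Slc7a10 (5.58). In DRG over nerve, 7 of the 28 were higher, among them Bcan (4.39), Gjb6 (3.96) and Aldoc (2.32), and Slc7a10 was lower (−2.15). The median of this list was 3.74 for cord minus nerve and 3.27 for cord minus DRG.

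Genes of satellite glia other than the 9 had no common direction. Of 18 tested, 5 were called higher and 5 lower in cord than in nerve, and 3 and 3 in cord than in DRG, with medians of 0.23 and −0.08. The counts against DRG were near the shares over all genes (16.6% higher and 12.8% lower), so they are not particular to this list. The transcription factor Sox2 was higher in cord than in DRG (log2 2.01). Cdh19, a cadherin of Schwann cell precursors, was lower (−3.66). In DRG over nerve, 4 were higher, with Ptprz1 at 2.35 and Ednrb, the endothelin receptor, at 1.25, and the ectonucleotidase Entpd2 was lower at −1.21.

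Genes known from reactive glia went the other way from the 9. Of 20 tested, 16 were lower and 1 higher in cord than in nerve, and 12 were lower and 1 higher in cord than in DRG (medians −3.12 and −1.22). Steap4, a metalloreductase (log2 −5.16), Serpina3n, a protease inhibitor (−4.81), and Serping1, the C1 inhibitor (−4.38), were lowest in cord against nerve. The complement component C3 was higher in cord (1.21). Many of these genes are also made by fibroblasts, Schwann cells and macrophages, and the summed fibroblast and perineurium markers were 131 to 189 in cord against 7669 to 9436 in nerve. The part of such cells in the result was not tested.

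Among 23 partners in the glutamate cycle, gap junctions and water transport, 13 were higher and 4 lower in cord than in nerve, and 9 higher and 3 lower than in DRG. Slc17a6, the vesicular glutamate transporter of DRG and dorsal horn neurons, was higher in cord (log2 6.69) and in DRG (5.36) than in nerve. The water channel Aqp1 was lower in cord than in nerve by a log2 difference of −4.75 and than in DRG by −3.37, so that it ran opposite to Aqp4. Of 26 paralogs of the members, 7 were higher and 13 lower in cord than in nerve. Fabp4, the adipocyte fatty acid-binding protein, was lower in cord than in nerve (−8.22) where Fabp7 was higher, and S100a11 was lower (−5.13) where S100b was higher.

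Across the 12 arrays the log2 values of the members correlated with each other with Pearson's r from 0.11 (Gja1 and Fabp7) to 0.99 (Slc1a3 and Aldh1l1), and the arrays share 3 tissues, so these values describe the tissue pattern. The gene with the most similar pattern among 11095 was Agpat4 for Gfap, Baalc for Aqp4, Mog for Slc1a2, Kctd3 for Slc1a3, Cabcoco1 for Gja1, Cbs for Aldh1l1, Unc119 for Glul, Gabrg1 for Fabp7 and Slc25a1 for S100b, with r between 0.984 and 0.998. These correlations include values raised to the floor. Slc1a2 and Mog were not well above background on the same nerve and DRG arrays. Their r therefore rests in part on floors that both genes share. Mog is a myelin protein of oligodendrocytes and Cbs, which was also on the astrocyte list, makes cystathionine.

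In the nerve, the side comparison asked what the peptide injection changed against PBS on the other side. Connexin 43 was higher and S100b lower on the injected side of both rat types. Over both rat types, 5 of the 9 genes passed the test (Gja1, S100b, Slc1a3, Aldh1l1 and Glul), where 21.5% of all genes did. The test was limma with a block for each rat type and tissue, with 3 residual degrees of freedom that hold the spread of all 3 tissues. With the 4 nerve arrays alone, an alternative chosen after seeing the data, S100b alone of the members passed (adjusted p = 0.00365), where 720 of 11095 genes did. The count of members was 2 with arrays scaled to their 75th percentile, where 1946 genes passed, and 1 with normexp background correction, where 936 did. Over all genes the median ratio was −0.38 for the nude and −0.05 for the wild-type nerves.

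Gja1 had a relative signal of 10.4 on the contralateral and 20.1 on the injected wild-type nerve, and of 10.3 and 20.8 on the nude nerves. Both injected nerves lay above both contralateral ones, and the values of the rat types nearly coincided. How many of all genes were separated by side in this way is not given. The log2 ratios were 0.95 for wild-type and 1.02 for nude rats, and 0.99 ± 0.19 (SE, limma adjusted p = 0.00138) over both. After normexp correction the nude ratio was −0.035, with a median of all genes of −0.86 between these arrays, and the wild-type direction held.

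S100b fell from 477 on the contralateral to 260 on the injected wild-type nerve and from 467 to 230 on the nude nerves. Both injected nerves lay below both contralateral ones on each of its probes, a separation whose share over all genes is not given. Wild-type rats had a log2 ratio of −0.87 and nude rats one of −1.02, and −0.95 ± 0.16 (SE, limma adjusted p = 0.000667) over both, with −0.98 on the other probe. The 6 myelinating Schwann cell markers on the array, all well above background, moved the same way, from a summed relative signal of 3179 to 1864 in wild-type and from 3498 to 1713 in nude rats. Adipocyte markers fell as well, from 206 to 46.1 in wild-type and from 254 to 45.5 in nude rats, while macrophage and endothelium markers rose. The part of Schwann cells or of other cells in the S100b result was not tested.

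Aldh1l1 read 1.69 on the contralateral and 1.06 on the injected wild-type nerve and 2.29 and 1.31 on the nude nerves, a log2 difference of −0.74 ± 0.21 (SE, limma adjusted p = 0.0222) over both. Glul read 16.1 and 13.4, and 16.8 and 8.29 (−0.64 ± 0.20, adjusted p = 0.0331). Slc1a3 read 11 and 8.36, and 15.1 and 7.26 (−0.73 ± 0.20, adjusted p = 0.0183). Slc1a3 lost its call without either nude nerve array (adjusted p up to 0.199), Glul without either nude nerve array or any 1 cord or DRG array (up to 0.366), and Aldh1l1 without either nude nerve array or any 1 cord array (up to 0.0683). For these 3 genes the nude difference was the larger, beside a median over all genes of −0.38 in nude and −0.05 in wild-type nerves. Both injected arrays lay below both contralateral ones, but the share of all genes so separated is not given. The second Slc1a3 probe did not show the fall, with 1.68 and 1.64 in wild-type, 1.58 and 1.55 in nude rats and a difference of −0.03. Aqp4 read 2.11 and 2.01 in wild-type but 1.2 and 2.58 in nude rats, so that its ratios were −0.07 and 1.10. Its probe A_44_P561166 read 3.68 and 1.56 in wild-type rats, a ratio of −1.24. Neither of the other Aqp4 probes was well above background on a nude nerve array, so the nude ratio rests on A_64_P036063 alone. Gfap ratios were −0.16 in wild-type rats and −0.23 in nude rats, where the injected nerve was not well above background. Slc1a2 and Fabp7 were above background only on the contralateral wild-type nerve and have no ratio in nude rats. In wild-type rats 1 member, Slc1a2, was at least 2-fold lower as a bound (4.08% of genes) and none higher (4.68%). The other Slc1a2 probe was 1.6-fold lower there, with its injected array also not well above background. In nude rats 3 members were lower (13.5%) and 2 higher (7.52%), Aqp4 among the latter on a single probe.

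**Figure D4:**
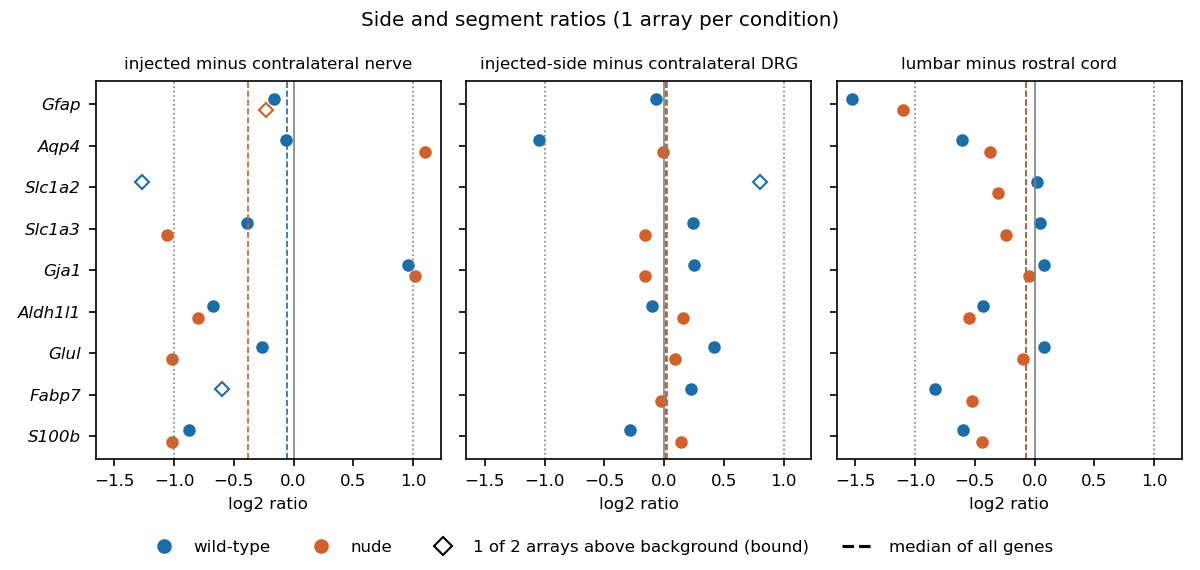
Log2 ratio of the injected to the contralateral side or of lumbar to rostral cord for the 9 genes, with wild-type rats in blue and nude rats in orange, 1 array per condition. Open diamonds are bounds with 1 of 2 arrays above background, dashed lines are the medians of all genes and dotted lines mark 2-fold. Gja1 is high and S100b low in both nerves, and Gfap is low in both cords.

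Of the other lists in the nerve, 13 of 28 other astrocyte genes passed the side test, 3 higher and 10 lower. Over all genes, 21.5% passed it either way. The 4 that were at least 2-fold lower in both rat types were Agt (−2.13 in wild-type and −2.47 in nude rats), Slc7a10 (−1.97 and −2.57), Aldoc (−1.21 and −1.53) and Fgfbp3 (−1.01 and −1.20), and the deiodinase Dio2 was higher (1.89 and 1.99). Agt, Slc7a10 and Dio2 are also known from fat tissue, and the summed adipocyte markers fell from 206 to 46.1 in wild-type and from 254 to 45.5 in nude nerves, with 2 or 3 of 4 markers well above background. Their part in the result was not tested. Of 20 reactive glia genes 7 were higher and 2 lower, with the metalloproteinase inhibitor Timp1 at 2.16 and 2.14 and the hyaluronan receptor Cd44 at 1.15 and 1.51. Of 18 satellite glia genes 2 were higher and 5 lower. The apolipoprotein Apoe was higher (1.99 and 1.58), and Hmgcs1 (−1.80 and −1.98) and Fdps (−1.12 and −1.17) of cholesterol synthesis were lower. Macrophage markers summed to 341 and 403 on the contralateral and injected wild-type nerves, and to 246 and 371 on the nude ones.

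In the DRG, where satellite glia lie, no member passed the side test over both rat types, and 0.027% of all genes did (3 of 11095). At an unadjusted p under 0.05 the share was 1.32% of genes and no member was among them, and none passed with the 4 DRG arrays alone, where 57 genes did. The error of the side test also holds the spread of nerve and cord. A lack of members therefore does not show that they were unchanged. Fabp7 ratios were 0.22 in wild-type and −0.03 in nude rats, Glul 0.42 and 0.09, Slc1a3 0.24 and −0.16, Gja1 0.25 and −0.16, S100b −0.29 and 0.14, and Aldh1l1 −0.10 and 0.16. Of these 6 genes only Glul had the same sign in both rat types. Gfap had a ratio of −0.07 in wild-type rats and Slc1a2, seen on the injected side only, one of 0.80 against the floor, and neither was above background in nude DRG. Aqp4 was 2.07-fold lower on the injected side of wild-type rats (2.06 against 4.26), past the 2-fold that 0.517% of genes reached, but its ratio was −0.01 in nude rats. No member was 2-fold higher in wild-type DRG (0.489% of genes) or past 2-fold in nude DRG (0.682% higher and 0.388% lower). Probe A_44_P561166 of Aqp4 went the other way in wild-type rats, with 2.99 on the injected side and no signal above background on the contralateral side. None of the genes in the 5 lists passed the side test in DRG.

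In the cord, the lumbar segment that receives the injected nerve was compared with the segment rostral to it, so that segment and treatment cannot be told apart. Gfap was lower in the lumbar cord of both rat types, and it was the member that passed the test (0.46% of genes did). Wild-type cord read 81.6 rostral and 28.4 lumbar and nude cord 45.2 and 21.1, so that both lumbar arrays lay below both rostral ones. The share of all genes separated in this way is not given. Log2 ratios of −1.52 (wild-type) and −1.10 (nude) were found, and −1.31 ± 0.22 (SE, limma adjusted p = 0.00773) over both. It was the only member past 2-fold in either rat type, where 0.831% of genes in wild-type and 0.589% in nude rats were at least 2-fold lower and 0.179% were so in both. None was 2-fold higher (0.913% and 0.776%). Without either of the wild-type cord arrays the adjusted p was 1, and without either of the nude ones it was 0.0888 or 0.106.

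Other members were lower in lumbar cord in both rat types without passing this test. Fabp7 read 255 rostral and 143 lumbar in wild-type and 190 and 132 in nude rats (log2 −0.83 and −0.52). Aqp4 ratios were −0.60 and −0.37, with each of its other probes also lower in both, S100b −0.60 and −0.44, and Aldh1l1 −0.43 and −0.55. With the 4 cord arrays alone, chosen after seeing the data, these 4 and Gfap passed, as did 1138 of 11095 genes, with adjusted p from 0.000333 (Gfap) to 0.012 (Aldh1l1). Gja1, Glul, Slc1a2 and Slc1a3 had ratios between −0.31 and 0.08 and differed in sign between the rat types. The second Slc1a2 probe did not differ in sign, with −0.04 in wild-type and −0.26 in nude rats.

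Markers of other cells also differed between the segments. The 8 oligodendrocyte markers summed to 871 in rostral and 647 in lumbar wild-type cord, and to 1040 and 675 in nude cord. The 6 myelinating Schwann cell markers rose from 72.2 to 389 and from 86.5 to 319, with 4 and 5 of 6 above background in rostral cord and 6 of 6 in lumbar cord. Dorsal horn neuron markers, 6 on the array, summed to 108 rostral and 178 lumbar in wild-type and to 130 and 143 in nude cord. Their part in the Gfap result was not tested. On the lists, Pla2g7, a phospholipase of the astrocyte list, was lower in lumbar cord (−1.44 in wild-type and −1.03 in nude rats), as were Lgals3, galectin-3 (−2.12 and −1.38), and Hspb1, a small heat shock protein (−1.33 and −1.42), while Steap4 was higher (1.66 and 1.87).

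**Figure D5:**
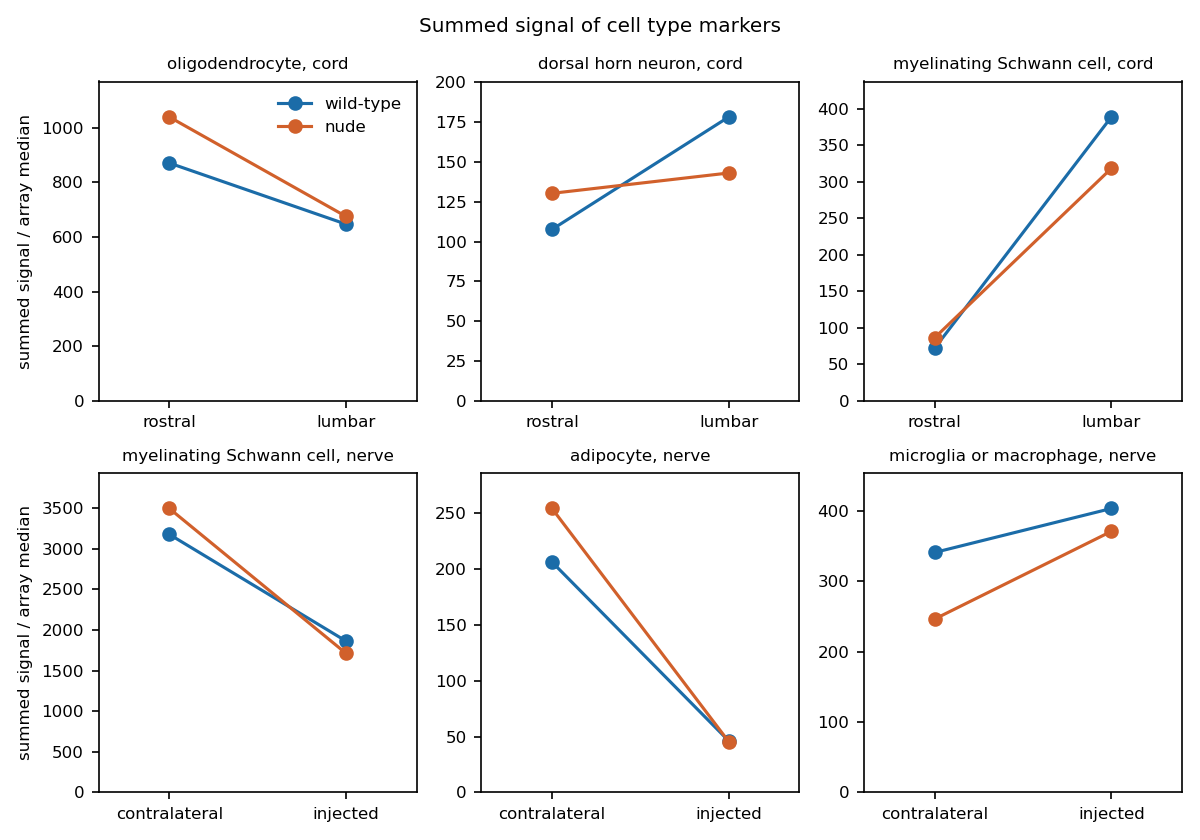
Summed relative signal (axes from 0) of markers well above background for chosen cell types. Segments of the cord are at the top and sides of the nerve at the bottom, 1 array per point, wild-type in blue and nude in orange. Other cell types that differed are not drawn. Endothelium went from 17.7 contralateral to 27.3 injected in wild-type and from 15.1 to 24.4 in nude nerve. Skeletal muscle went from 24.1 to 143 in wild-type and from 13.6 to 10.9 in nude nerve. Schwann cell markers are higher in lumbar cord and lower in injected nerve, and adipocyte markers are lower in injected nerve, in both rat types.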

How the data were processed

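Arrays were Agilent SurePrint G3 Rat GE 8x60K, hybridised with Cy3-labelled RNA, 1 array per pool. The deposited intensity values (processed spot signals) were made by the authors with Agilent Feature Extraction, 10.7.3.1 in the file headers and 10.5 in the labels, which subtracts background within the array and applies no scaling between arrays. The other deposited columns used are the authors' flags for outlying spots and for signal well above background. The deposited log2 values, normalized by the authors, served as an alternative, and each array's median in them was 5.25.

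Outlier-flagged spots were dropped, log2 signals of the spots of a probe averaged, and the median over 30367 probes subtracted from each array. A probe was well above background when more than 50% of its spots were. Signals under the lowest well-above-background signal of an array (the floor) were raised to it. RefSeq accessions named 18006 probes (15159 genes) through a GRCr8 table, and a gene took the probe with the highest mean log2 signal. Tissue differences were fitted with limma 3.58.1 (R 4.3.3, trend) with rat type as a block (8 residual degrees of freedom), and sides with 6 blocks and 3 side effects (3 residual degrees of freedom). Called tissue differences had an adjusted p under 0.05 and at least 2-fold, and called side effects an adjusted p under 0.05. Side ratios within a rat type needed 1 of 2 arrays above background and have no test.

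The members and the lists were chosen with earlier results of these data known. Named genes are the members, up to 3 highest and lowest called genes of each list and contrast, up to 5 list genes at least 2-fold the same way in both rat types, and the genes most correlated with each member. The text prints part of these. Alternatives were the 75th percentile, quantile normalization, normexp with an offset of 50 (run on the median spot signal), the authors' values, no floor, no filter, the mean over probes, outlier spots kept, the slide as a block, control arrays only, the mean of both sides, other fold thresholds and leaving out each array. Methods were tested on simulated data: of 200 genes changed 4-fold among 11095, 193 were recovered for cord minus nerve with 0 false calls, and 152 for the nerve sides with 5 false calls. Figures were drawn with matplotlib 3.10.9 in Python 3.11.15. Probe sequences were not used here, so binding to related genes was not checked.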

Additional observations from a re-analysis of the deposited data

Results flagged for a closer look

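The side ratio (log2) had opposite signs in wild-type and nude rats in 10 cases, each with 1 array per condition, so none of these differences was tested, and the values given are wild-type minus nude. In nerve this was Aqp4, with −1.17, on the only one of its probes that was well above background in nude nerve. In DRG it was Slc1a3 with 0.40, Gja1 with 0.41, Fabp7 with 0.25, Aldh1l1 with −0.26 and S100b with −0.43. In cord it was Slc1a2 with 0.33, Slc1a3 with 0.28, Glul with 0.17 and Gja1 with 0.13. The second Slc1a2 probe was lower in the lumbar cord of both rat types (−0.04 in wild-type and −0.26 in nude rats). No array stood apart from the other 3 of its tissue in the 23 sets of 4 arrays looked at, by the gap of its highest or lowest array over the whole range.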

How the results depend on the processing

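No paired analysis was possible because the labels carry no replicate numbers to pair arrays by, beyond the side test itself, which sets both sides against each other within each rat type and tissue. The nude injected nerve was the dimmest array, and the median side ratio of all genes between the nude nerves ranged from −0.86 (normexp) to 0.21 (no filter), with −0.11 for the 75th percentile. Signal over background limits Slc1a2 in nerve and DRG, Fabp7 in nerve and Gfap in nude DRG. Member tissue differences past the adjusted p kept their direction under all alternatives run, and none of their side tests reversed, but the side tests lost the adjusted p in 36 of the cases run and kept it in 90. Tissue differences lost the adjusted p in 11 cases, of Glul in DRG minus nerve and, with the slide as a block, of S100b in cord minus nerve. Of 27 member contrasts that did not pass, 19 changed sign and 11 passed under at least 1 alternative. With the 75th percentile, genes lower in DRG than in nerve numbered 801 in place of 1247, members passing the nerve side test 2 in place of 5, members at least 2-fold higher in wild-type nerve 1 in place of 0, and members 2-fold lower in nude nerve 0 in place of 3. That last count was also 0 after quantile normalization and with the authors' values, which gave 91 and 87 genes for lumbar minus rostral cord (51 in the main setting), with 2 members after quantile normalization. Normexp gave 1024 genes lower in cord than in nerve, 438 lower in cord than in DRG, 436 higher and 619 lower in DRG than in nerve, 936 for the nerve sides and 10 for the DRG sides. It left 1 member for the nerve sides, 0 members 2-fold higher in nude nerve, 0 lower in wild-type nerve and DRG and 2 lower in wild-type cord, and turned the Gja1 ratio of nude nerve to −0.035. With the mean over probes, the Aqp4 ratio of wild-type DRG turned to 0.45 and 0 members were 2-fold lower in wild-type nerve and DRG. Without a floor, 8 genes passed for the DRG sides, 2 members were lower in DRG than in nerve and 1 was 2-fold higher in wild-type DRG. Without a filter, 28 genes passed for the DRG sides and 160 for the cord, and 4 members were 2-fold higher in nude nerve. With control arrays only, 2 members were higher (Fabp7 and Aqp4) and 2 lower (Gja1 and Glul) in DRG than in nerve. Without a fold threshold, genes higher and lower numbered 3200 and 4036 for cord minus nerve, 3862 and 2874 for cord minus DRG and 1383 and 3742 for DRG minus nerve, with 2 members lower in the last. At 3-fold, 0 members passed in any side ratio. With the arrays of 1 tissue alone, chosen after seeing the data, 720 genes and 1 member passed for nerve, 57 genes for DRG, and 1138 genes and 5 members for cord. Leaving out 1 array at a time gave 1517 to 6048 genes and 3 to 8 members for the nerve sides (6048 and 8 without the wild-type injected nerve), 0 to 15 genes for the DRG sides, and 31 to 385 genes and 0 to 2 members for the cord. The cause of these changes was not tested.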
